A study of Mus musculus with 19 samples.

Results

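Endometrial RNA of mice on day 3.5 post-coitum (pc) was compared between the 8 libraries whose column prefix contains VAS and the 8 other mated libraries. The members were chosen by prefix alone: VAS1 to VAS4 and SVX_VAS1 to SVX_VAS4 on one side, INT1 to INT4 and SVX1 to SVX4 on the other, so 16 of the 19 libraries of the series took part. The remaining 3 libraries came from virgin C57Bl/6 females at estrus and entered the statistical fit, where they shared the estimate of the spread and counted towards the filter on low counts: 209 of the 17222 genes tested (1.21%) passed it only with the estrus libraries included. All females were wild-type C57Bl/6 mice and the mated ones had been paired with Balb/c males; by the study's methods, endometrium was scraped off the opened uterus and the myometrium discarded. INT females had been mated with intact males in every label. Read by prefix, VAS stands for vasectomy and SVX for removal of the seminal vesicles, and the comparison is the vasectomy factor with and without seminal vesicle fluid. The sample titles say otherwise: they call the SVX columns vasectomised, the SVX_VAS columns seminal vesicle-deficient, and the VAS columns both. Read by title, the same 8 against 8 libraries are the seminal vesicle factor. The interaction of the prefixes is then the vasectomy factor with its sign reversed and on a larger scale. The comparison by the SVX prefix becomes the interaction, apart from sign and scale. The groups are therefore given by prefix only, and the surgery behind a difference cannot be told from the labels. Each library was made from a pooled sample, the number of animals per pool was not given in the sources used here, and p-values measure the spread between these pools.

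A vasectomised male deposits accessory gland fluid without sperm, so no embryos form and the female becomes pseudopregnant. A male without seminal vesicles still delivers sperm but lacks most of the seminal plasma proteins. Seminal fluid is known to induce cytokines and chemokines in the cervix and uterus soon after mating and to draw in neutrophils, macrophages and dendritic cells. By day 3.5 pc, progesterone from the corpora lutea has taken over from the estrogen of estrus: the uterine epithelium stops proliferating, the stroma starts to divide, the glands secrete, and the blastocysts are about to attach.

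The mated libraries held from 12661266 to 20525568 counts on genes, and 3 counts corresponded to between 0.14 and 0.236 CPM (a gene's counts scaled to a common library total), a limit that covers counting error only. VAS2 and VAS3 stood apart from the 14 other mated libraries. Their totals were ordinary (16722426 and 16104357), but counts were detected on 25016 and 25037 genes against 28334 to 29380 in the others, and the 20 most counted genes took 1.84% and 1.82% of the counts against 5.49% to 7.46%. The highest coverage of any gene over 500 bases long was 1.79 and 1.71 counts per base, where the 14 others reached 25.2 to 100. Their TMM factors, which scale each library to the bulk of the genes, were 1.292 and 1.33 against 0.9368 to 1.02. Abundant transcripts were low in both: Actb, the cytoplasmic actin, stood at 146 and 154 CPM against 1390 to 1810, and Malat1, an abundant nuclear noncoding RNA, at 548 in both against 9930 to 14100. Genes that share exon sequence with a gene on the opposite strand were low in both more often: of 5340 such genes tested, 1099 (20.6%) lay more than 4-fold below the lowest of the 14 others in both libraries, against 519 of 11882 other genes (4.37%). Whether these libraries were counted or filtered differently was not tested. The main results below are therefore given with these libraries and without them.

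**Figure D1:**
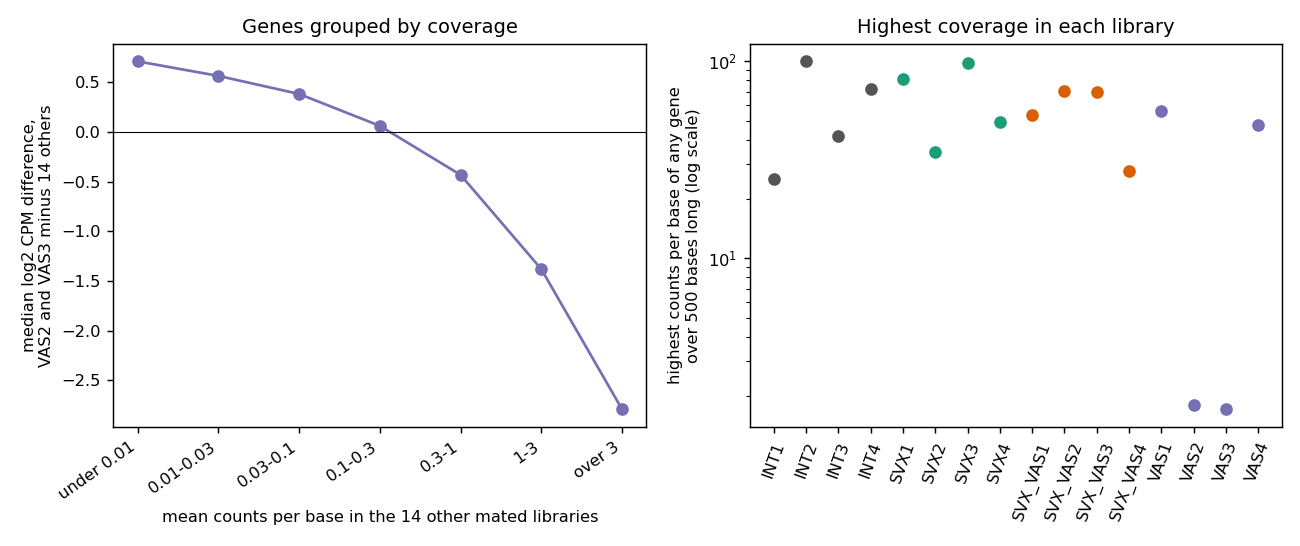
Left, the median log2 CPM difference of VAS2 and VAS3 from the 14 other mated libraries, for genes with no gene on the opposite strand, grouped by their mean counts per base; it ran from 0.71 for the least covered genes to -2.79 for the most covered. Right, the highest counts per base in each mated library on a log scale: 1.79 in VAS2 and 1.71 in VAS3, and 25.2 or more in the rest.

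No gene passed the threshold between the VAS-prefixed and the other mated libraries. Of 17222 genes tested with edgeR's quasi-likelihood test, 0 were higher and 0 were lower at an FDR of 0.05 or less and a difference of at least 1.5-fold (the fold cutoff on the logFC, the log2 fold change), which is 0% in either direction, and the smallest FDR was 0.838. Without VAS2 and VAS3, again 0 genes were called in either direction (0%), with a smallest FDR of 1. At an unadjusted p under 0.05 there were 518 genes, 327 higher (1.9% of those tested) and 191 lower (1.11%), and without both libraries 162 genes, 72 higher (0.418%) and 90 lower (0.523%). These shares of 3.01% and 0.941% lie below the 5% that evenly spread p-values would give, but the share rested on single libraries: it was 15.7% (2705 genes) without VAS1 and 12.6% (2174) without VAS4, again with 0 genes called. With the filter applied to the 16 mated libraries alone, 17013 genes were tested, 0 were called and 513 had an unadjusted p under 0.05. DESeq2 also called 0 genes with all libraries (604 at an unadjusted p under 0.05) and 0 without VAS2 and VAS3 (143). A missed threshold does not show that the groups were alike, so the precision matters: the 95% interval of the logFC stayed under a 1.5-fold difference in both directions for 12371 genes (71.8%) with all libraries and for 14458 (84%) without VAS2 and VAS3. For those genes, a 1.5-fold difference in the pooled contrast lay outside the interval. That contrast averages VAS against INT with SVX_VAS against SVX, so opposite differences can cancel in it. For the other genes the data leave room for a difference of that size. The median standard error was 0.126, and 0.11 without both libraries.

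**Figure D2:**
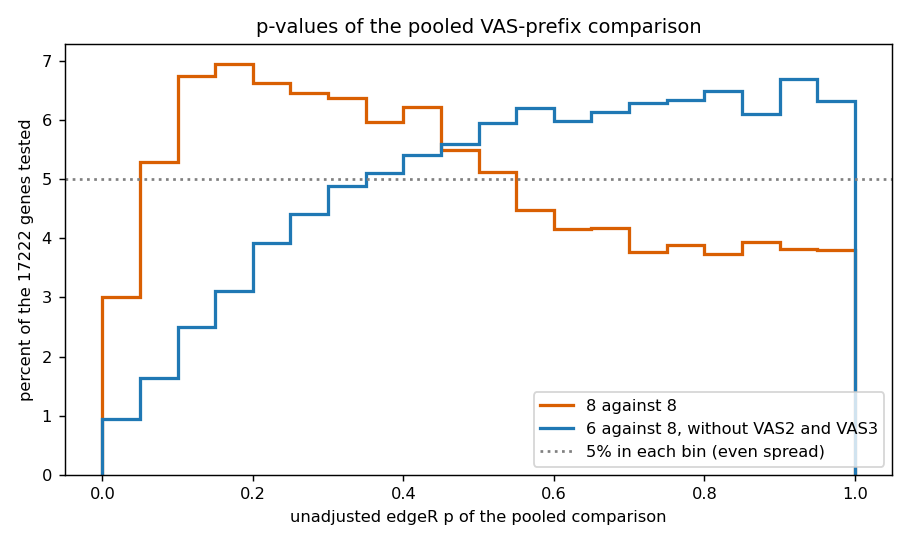
Percent of the 17222 genes tested in each 0.05-wide bin of the unadjusted edgeR p (x axis). The first bin held 3.01% of genes for 8 against 8 libraries and 0.941% for 6 against 8, both under the dotted line at 5%.

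Single genes were also compared by a test that uses no model, although it could hardly call any after adjustment. The log2 CPM of each gene was compared by an exact permutation test over all 12870 ways to give 8 of the 16 libraries the prefix (two-sided, smallest possible p 0.000155). At 17222 genes, 54 genes would have to reach that p together before any could pass an adjusted 0.05, and 115 without VAS2 and VAS3, where the smallest possible p was 0.000333, so the lack of a call here says little. The smallest p was 0.000311 and the smallest adjusted p 0.836, and 528 genes (3.07%) had an unadjusted p under 0.05. In 0 genes (0%) did all VAS-prefixed libraries lie above or below all others. Among 6 against 8 libraries, with VAS2 and VAS3 left out, 2 genes (0.0116%) had 6 VAS-prefixed libraries above the 8 others, and 0 genes (0%) had them below. These were the predicted genes Gm21182 and Gm15708, named because of this count. Gm21182 ranged from 2.61 to 3.27 CPM in the 6 libraries and from 2.05 to 2.49 in the 8, but was listed at 0 in VAS2 and 0.0941 in VAS3. Gm15708 ranged from 5.94 to 8.76 CPM against 4.98 to 5.86, and was 3.31 in VAS2 and 3.67 in VAS3. Both therefore stood lowest in the 2 libraries left out.

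The count of 0 depended on the tool when VAS2 and VAS3 were in the fit. limma-voom, with the same cutoffs, called 746 genes, of which 745 were lower with the VAS prefix and only Slc15a1 was higher. With sample quality weights it called 2435 genes, 79 higher and 2356 lower. In that fit VAS2 and VAS3 had weights of 0.987 and 1.72 against 0.0833 for VAS1 and 0.142 for VAS4, so the VAS group was represented mostly by the former. Without VAS2 and VAS3, limma-voom called 0 genes (168 at an unadjusted p under 0.05), and 0 with weights (50). The 745 lower genes had a median logFC of -2.21 in limma-voom and -0.54 in edgeR, and -0.04 in edgeR once both libraries were left out. Of the 745, 2 had an unadjusted edgeR p under 0.05 with all libraries and 19 without VAS2 and VAS3, beside 518 and 162 of all 17222 genes. In 511 of the 745 (68.6%), an exon overlapped an exon of a gene on the opposite strand, against 5340 of all genes tested (31%). Whether the counting used strand was not stated, so reads of such gene pairs may not be told apart. Whether this bears on the low values in VAS2 and VAS3 was not tested. Foxp3, the transcription factor of regulatory T cells, shows the pattern: it has such an overlap and was among the genes limma-voom called lower. Its level lay between 10.8 and 12.5 CPM in the 8 libraries without the VAS prefix and reached 12.7 CPM with it, but was 0.28 in VAS2 and 0 in VAS3. The edgeR logFC was -0.45 with all libraries and 0.05 without VAS2 and VAS3.

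The main axes of variation did not follow the VAS prefix. The first principal component of the 16 libraries held 70.9% of the variance and set VAS2 (score 198) and VAS3 (191) apart from the other 14, which lay between -31.6 and -21.3. Scores were 28.1 ± 103 (SD, n = 8) with the VAS prefix and -28.1 ± 3.66 (SD, n = 8) without it (exact permutation test, p = 0.162, adjusted over 4 components 0.648). The same test gave p = 0.0424 (exact permutation test, adjusted 0.17) with SVX_VAS3 left out. It gave p from 0.248 to 0.322 (exact permutation test) with any single comparison library left out. With VAS2 and VAS3 this far out, the test says little about the other 14 libraries. The second component (16.3%) ran from -33 to 67.4 with libraries of every group mixed (exact permutation test, p = 0.754, adjusted 0.783). Its high end was held by INT1 (67.4), VAS1 (58.9), INT2 (49.8) and SVX_VAS2 (45.3). With VAS2 and VAS3 left out, that axis became the first, with 58.6% of the variance, and again did not separate the prefixes (exact permutation test, p = 0.708, adjusted 0.811). The share of the total variance between the VAS-prefixed and other libraries was 11%, and 2.89% without VAS2 and VAS3. Within the 4 groups lay 64.1%, and 79.5% without VAS2 and VAS3, when the VAS group held only VAS1 and VAS4.

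**Figure D3:**
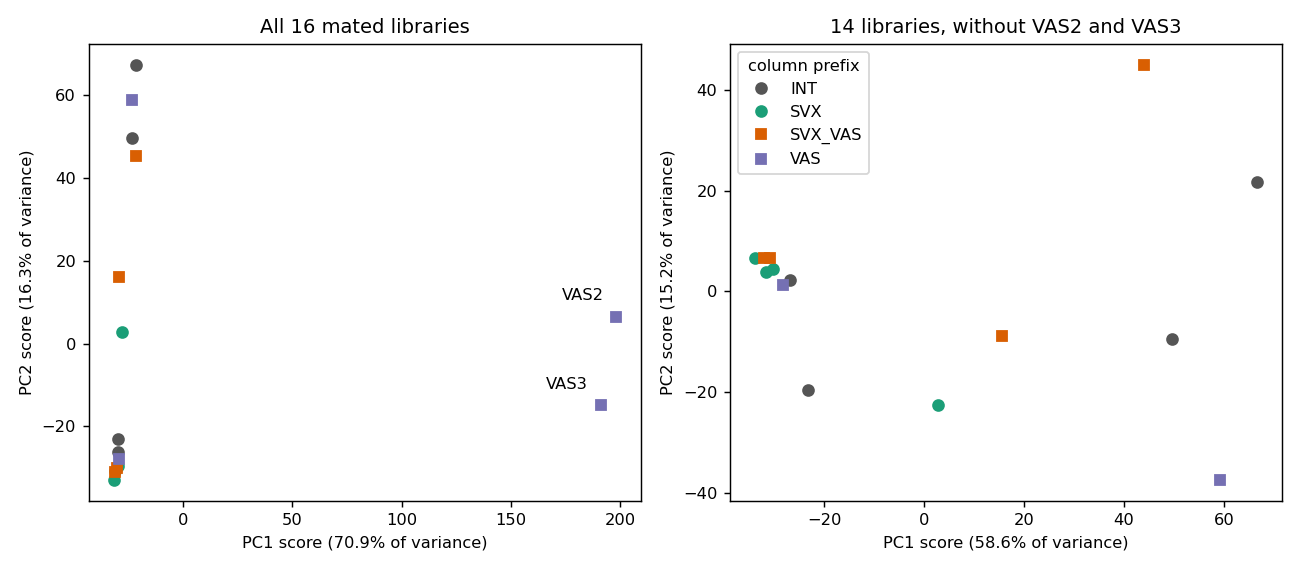
Scores of the mated libraries on the first and second principal components of log2 CPM, squares with and circles without the VAS prefix. In the left plot VAS2 and VAS3 lie at 198 and 191 on the first component; in the right plot, without them, squares and circles overlap on both axes.

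The 12 genes of smallest p among those with a positive logFC are described here as not called by edgeR. Slc15a1, a proton-coupled transporter of di- and tripeptides, came first (chr14:121459621-121505254, GRCm38). It measured 5.31, 3.49, 5.08 and 3.68 CPM in SVX_VAS1 to SVX_VAS4 and 4.74, 4.39, 5.27 and 2.97 in VAS1 to VAS4. In the comparison libraries it measured 1.97, 2.52, 1.54 and 2.8 CPM in INT1 to INT4 and 4.28, 2.28, 2.12 and 1.86 in SVX1 to SVX4. The 8 VAS-prefixed libraries all lay above the median of the others, but SVX1 fell inside their range. With all libraries, limma-voom called Slc15a1 higher (logFC 0.924, FDR 0.045), but not without VAS2 and VAS3. The logFC was 0.86 (95% interval 0.38 to 1.33, edgeR p = 0.00141, FDR 0.838) and the exact permutation p was 0.00109 (adjusted 0.836). It was 0.78 (0.26 to 1.3, FDR 1) without VAS2 and VAS3, and over the fits that left out 1 library it ran from 0.79 to 1.02.

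The other leading genes with higher values were small differences at low or moderate levels. Gm43597, a predicted gene on chromosome 5, had a logFC of 0.39 (0.28 without VAS2 and VAS3), with 4.22 to 6.62 CPM against 3.72 to 4.55. Kcne3, a regulatory subunit of potassium channels, had a logFC of 0.63, and 0.48 without VAS2 and VAS3 (5.14 to 10.6 CPM against 3.22 to 6.51). Dusp1, a phosphatase that switches off MAP kinases, had 0.44, and 0.35 without them (13.2 to 24.6 CPM against 9.77 to 16.5). In each of these 3 genes the ranges overlapped, and all 8 VAS-prefixed libraries lay above the median of the others. Cnnm4, which exports magnesium across the basolateral membrane, had 0.24 (0.13 without VAS2 and VAS3) and Unc45a, a chaperone of myosin, 0.17 (0.13). Among predicted and uncharacterised genes, Gm9195 had 0.45, AU021092 0.26, Gm43594 0.49 and 5730405O15Rik 0.46. The remaining members of the 12, Cxcl5 and Clca3b, had the largest logFC of the 12 and are taken up below.

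The 12 leading genes with a negative logFC also held small differences, all at an FDR of 0.838. The gene with the smallest p had no symbol in the annotation used (ENSMUSG00000097243.1, chr14:70205324-70217659, GRCm38), with a logFC of -0.49 and an edgeR p of 0.000521; its exact permutation p was 0.00326. It lay between 2.33 and 4.49 CPM with the VAS prefix and between 3.86 and 5.49 without it, and VAS1, VAS2 and VAS3 were lowest at 2.48, 2.33 and 2.54. Lamtor4, a subunit of the Ragulator complex that anchors mTORC1 signalling at lysosomes, had the smallest exact permutation p, 0.000311 (adjusted 0.836). It measured 17.4, 17.6, 18.7 and 19.1 CPM in SVX_VAS1 to SVX_VAS4 and 19.2, 13.9, 15.1 and 18.2 in VAS1 to VAS4. The 8 others lay between 19.2 and 22 CPM, so the sides met at 19.2. Its logFC of -0.21 became -0.12 (95% interval -0.24 to -0.01) without VAS2 and VAS3.

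Tmem255a, a membrane protein gene on chromosome X, had a logFC of -0.43 and -0.32 without VAS2 and VAS3, which were its lowest libraries at 5.37 and 5.74 CPM. Degs1, the desaturase of the last step of ceramide synthesis, went from -0.20 to -0.12 and Ccng1, the p53-induced cyclin G1, from -0.23 to -0.15. Fundc2, a mitochondrial outer membrane protein, had -0.15 and Dexi -0.16. The noncoding or uncharacterised genes Snhg18 (-0.26), 1700084E18Rik (-0.68), 2610203C22Rik (-0.48), 9330160F10Rik (-0.41) and 2610001J05Rik (-0.17) completed the group. 1700084E18Rik, 2610203C22Rik, 9330160F10Rik, Tmem255a, Dexi and ENSMUSG00000097243.1 overlap exons on the opposite strand. When the ranking was repeated without VAS2 and VAS3, 7 of the 24 leading genes stayed among the 24: Slc15a1, Gm43597, Gm9195, AU021092, ENSMUSG00000097243.1, Tmem255a and 2610203C22Rik.

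In several genes a large positive logFC came from SVX_VAS2, VAS2 and, in most of them, VAS3, although 1 library without it was also high in most of them. Clca3b, a calcium-activated chloride channel regulator of the epithelium, stood at 59.6 CPM in SVX_VAS2, 34.9 in VAS2 and 18.1 in VAS3, and at 6.88 in INT1. The other 5 VAS-prefixed libraries lay between 0.147 and 0.902 CPM and the other 7 comparison libraries between 0 and 0.504. The logFC of 4.61 (95% interval 1.57 to 7.64, exact permutation p = 0.102) became 2.48 (-1.18 to 6.14) without VAS2 and VAS3 and 1.44 without SVX_VAS2. Cxcl5, a chemokine that attracts neutrophils, showed the same libraries: 28.1 CPM in SVX_VAS2, 31.1 in VAS2 and 13.5 in VAS3, and 3.48 in INT1. All other libraries lay between 0.14 and 1.46 CPM. Its logFC of 2.87 (1 to 4.73, exact permutation p = 0.103) became 1.12 (-0.73 to 2.96) without VAS2 and VAS3 and 1.48 without SVX_VAS2.

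Ptgs2, the inducible cyclooxygenase of prostaglandin synthesis, reached 315 CPM in SVX_VAS2 and 147 in VAS2, and the 14 other libraries lay between 4.24 and 20.9. Its logFC was 2.74 (0.87 to 4.62, exact permutation p = 0.198), and 1.15 without SVX_VAS2 or 1.41 (-0.34 to 3.15) without VAS2 and VAS3. Slc26a4, the anion exchanger pendrin, had 91.1 CPM in SVX_VAS2, 93.5 in VAS2, 12.7 in VAS3 and 19.7 in INT1 and at most 1.58 elsewhere, with a logFC of 3.86, and 1.27 without SVX_VAS2. Sprr2d, a cornified envelope protein induced by estrogen in the uterine epithelium, had 38 CPM in SVX_VAS2, 24 in VAS2, 6.16 in VAS3 and 22.5 in INT1 and at most 0.567 elsewhere. Its logFC of 4.08 (0.22 to 7.94) became 0.881 without SVX_VAS2 and 1.72 without VAS2 and VAS3. In none of these 5 genes did SVX_VAS1, SVX_VAS3, SVX_VAS4, VAS1 and VAS4 exceed the range of the comparison libraries.

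Large negative logFC values were also carried by few libraries. Prss29, an implantation serine proteinase secreted by the glands under progesterone, had the most negative logFC of all genes tested, -2.74 (95% interval -4.82 to -0.66, FDR 0.838). Without the VAS prefix it measured 11, 7, 186 and 0.98 CPM in INT1 to INT4 and 211, 16, 9.22 and 245 in SVX1 to SVX4. With the prefix it measured 8.89, 3.11, 2.37 and 8.09 in SVX_VAS1 to SVX_VAS4 and 2.76, 7.09, 37.5 and 51.6 in VAS1 to VAS4. INT3, SVX1 and SVX4 were the 3 high libraries, 4 of the other 5 comparison libraries lay within the range of the VAS-prefixed ones and INT4 lay below it, and the exact permutation p was 0.203. The logFC was -2.67 without VAS2 and VAS3 and -1.21 without INT3. Its neighbouring relative Prss28, named after its values were seen, followed it with -2.51, from 108, 139 and 106 CPM in the same 3 libraries and 0.49 to 26.9 in all others. Cyp26a1, the retinoic acid hydroxylase that progesterone induces in the epithelium, was also high in INT3 (103 CPM), SVX1 (73.9) and SVX4 (55.1), with VAS4 (41.2) and VAS3 (30.9) next. Its logFC was -1.67, and -0.0674 when INT3 was left out.

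**Figure D4:**
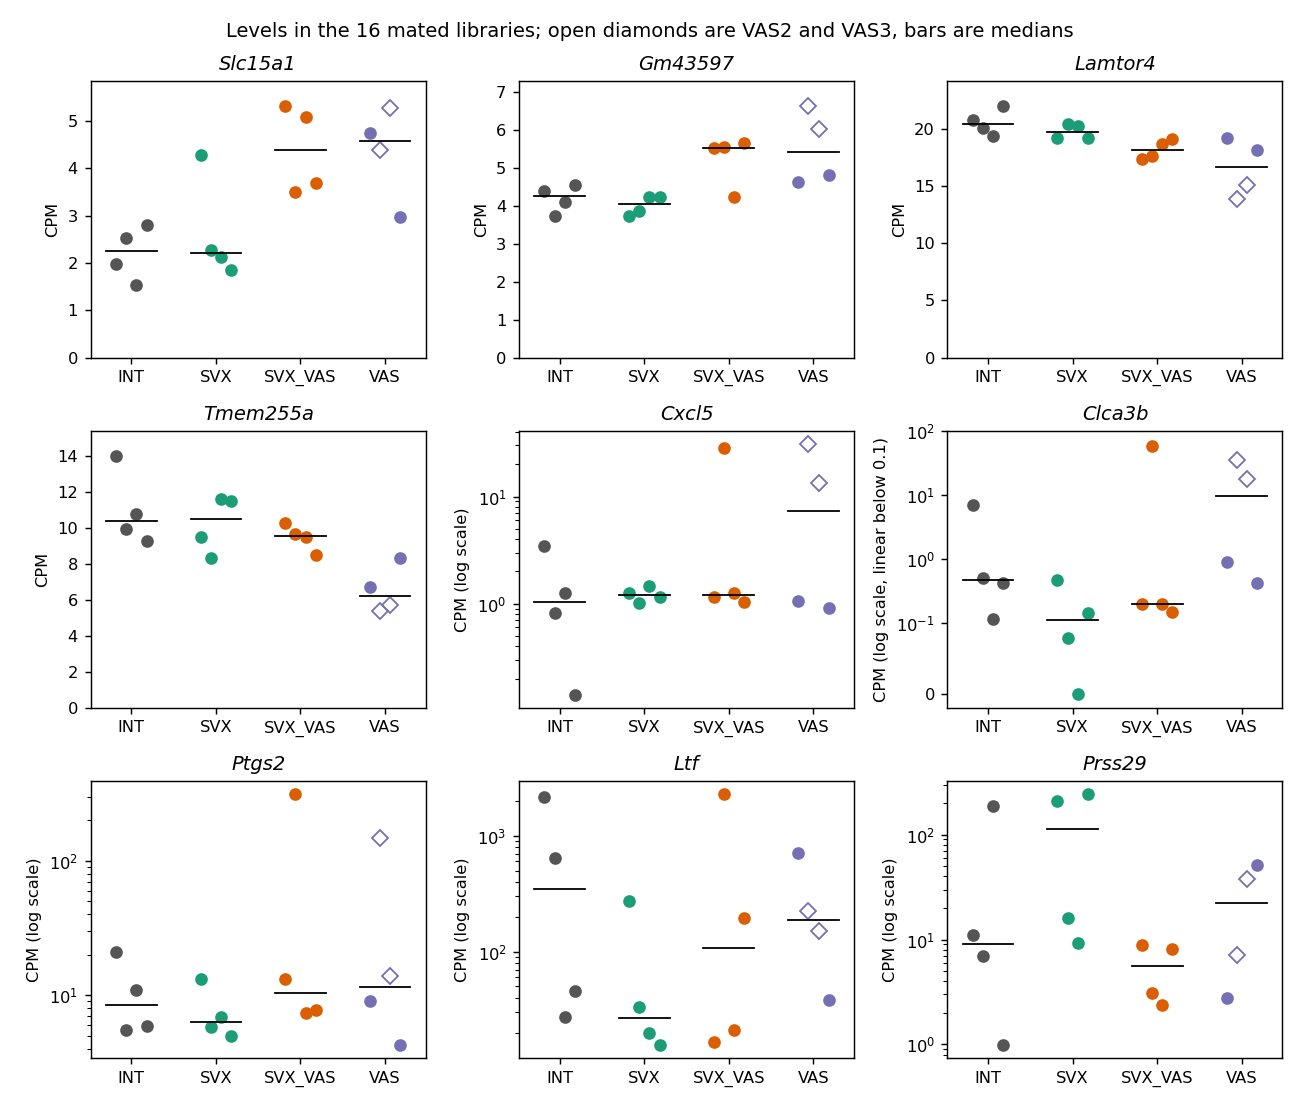
CPM of 9 genes in the 16 mated libraries by column prefix (x axis), with bars at the medians of 4 and open diamonds for VAS2 and VAS3; the lower 5 plots have log axes. Slc15a1 was shifted in most libraries, whereas Cxcl5, Clca3b and Ptgs2 were high in SVX_VAS2 and VAS2, and Prss29 was high in INT3, SVX1 and SVX4.

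Genes were also grouped into 33 lists by hormone response, cell type and process, of which 32 had members that were tested. No member of any list was called in either direction, so each list is described by the median logFC of its tested members beside 0.00 for all genes tested, with the value without VAS2 and VAS3. The members with the largest and the smallest logFC are named for each list. For epithelium and for cholesterol and fatty acid synthesis the smallest alone is named. None of them passed the threshold in edgeR, whereas limma-voom called Foxp3 lower, as given above. A logFC or list median is followed in brackets by its value without VAS2 and VAS3. That value does not show how far a logFC rests on another library: over the fits that left out 1 library, 73 of the 102 named genes had a logFC that moved by over 1.5 times, and in 16 of them its sign changed.

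Estrogen-induced epithelial genes had the highest list median, 0.77 over 22 tested members (0.78 without VAS2 and VAS3), from Sprr2d at 4.08 (1.72) to the sulfotransferase Sult1a1 at -0.08 (-0.09). Of the 22, 2 passed the low-count filter only with the estrus libraries included. The list median in single libraries was 7.39 to 7.6 log2 CPM at estrus. On day 3.5 pc it was above 5 in 5 VAS-prefixed libraries (SVX_VAS2 6.51, VAS1 6.43, VAS2 5.83, SVX_VAS4 5.78 and VAS3 5.11) and in 2 others (INT1 6.84 and INT2 6.08). SVX1, without the prefix, came next at 4.92. The lowest values were 1.72 in SVX_VAS3 and 1.9 in SVX3, so both sides covered nearly the whole range. The list median of the logFC was 0.03 without SVX_VAS2 and 0.38 without VAS1, and 1.35 without SVX1 and 1.33 without INT1. Ltf, lactoferrin, the classical estrogen-induced secretory protein of the uterus, named after its values were seen, ranged from 16.7 CPM in SVX_VAS1 to 2300 in SVX_VAS2 with the VAS prefix and from 15.5 in SVX4 to 2160 in INT1 without it. Its logFC was 0.77 (95% interval -1.46 to 3) and turned to -0.75 without SVX_VAS2.

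The other hormone lists had medians from -0.10 to 0.01. Progesterone-induced genes had a median of -0.10 over 33 members (-0.07 without VAS2 and VAS3), from Wnt4, a ligand of decidualization, at 0.56 (0.52) to Cyp26a1 at -1.67 (-1.52). Wnt4 was highest in VAS1 (32.6 CPM), VAS3 (23.1) and SVX_VAS2 (21), with 4.93 to 20.9 in the other 13 libraries, and its logFC was 0.243 without SVX_VAS2 and 0.409 without VAS1. Uterine gland genes had -0.10 over 18 members (-0.17), from Gm42692 at 0.31 (-0.20) to Prss29. Of the 18, 3 had an unadjusted p under 0.05 and a negative logFC, beside 1.11% of all genes tested. Without VAS2 and VAS3, 3 had such a p in either direction, beside 0.941% of all genes tested. Steroid receptors and steroid enzymes had -0.05 over 14 members (0.01), from Hsd17b2, which oxidises estradiol to estrone, at 3.14 (1.85) to Star, the cholesterol carrier of steroid synthesis, at -0.29 (-0.02). Of the 14, 1 passed the low-count filter only with the estrus libraries included. Hsd17b2 was above 2 CPM only in SVX_VAS2 (38.1), INT1 (30.4), VAS2 (21.6) and INT2 (5.8), and its logFC was 0.841 without SVX_VAS2. Implantation factors had 0.01 over 34 members (0.01), from Ptgs2 to Hoxa10, a homeobox gene needed for receptivity, at -0.38 (-0.20; 95% interval with all libraries -0.78 to 0.02). Of these 34, the interval of 18 stayed under a 1.5-fold difference.

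Cytokines and chemokines known to respond to seminal fluid had a median of 0.20 over 21 tested members, and 0.02 without VAS2 and VAS3. Of the 21, 4 had an unadjusted p under 0.05 and a positive logFC with all libraries, beside 1.9% of all genes tested, and 0 of 21 had a p under 0.05 without VAS2 and VAS3. The list median was 0.07 without SVX_VAS2 and 0.46 without INT1. Il1b, the inflammatory interleukin, named after its values were seen, stood at 7.98 CPM in VAS2 and 6.77 in VAS3 and between 0.931 and 3.66 in the 14 others. Its logFC of 1.01 became 0.27 without them. The list ran from Cxcl5 at 2.87 (1.12) to the monocyte chemokine Ccl8 at -0.19 (-0.32). Of 41 listed genes, 20 were too low to be tested.

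Neutrophil genes had a median of 0.76, but over only 4 tested of 13 listed, and 0.33 without VAS2 and VAS3. It was 1.12 in VAS against INT (0.55 without VAS2 and VAS3) and 0.02 in SVX_VAS against SVX. Of the 4, 1 passed the low-count filter only with the estrus libraries included. Mmp9, the granule gelatinase, had a logFC of 0.87 from 17.1 CPM in VAS3, 7.79 in VAS2 and 4.74 in VAS1, with 1.64 to 2.89 in all others, and 0.33 without VAS2 and VAS3. Retnlg had 0.30. The summed CPM of the 13 neutrophil genes was 13 to 91.5 with the VAS prefix (13 to 32.1 without VAS2 and VAS3) and 11.2 to 20.2 without it. A different number of cells of a type and a different amount of RNA per cell cannot be told apart in these bulk samples.

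Other immune lists had medians from -0.15 to 0.47. Macrophages and dendritic cells had a median of 0.01 over 23 members (-0.11 without VAS2 and VAS3), from the monocyte marker Ly6c2 at 0.74 (0.10; 0.453 without SVX_VAS2) to the lysozyme Lyz2 at -0.39 (-0.14). T cells and regulatory T cells had 0.08 over 10 members (-0.15), from Cd3e, a chain of the T cell receptor complex, at 0.23 (-0.20) to Foxp3. Natural killer cells had -0.10 over 17 members (-0.20), from Itga2 at 0.91 (0.53; 0.209 without SVX_VAS2) to the receptor Klrk1 at -0.22 (-0.40). B cells and plasma cells had -0.02 over 7 members (-0.17), from Pigr, the epithelial carrier of immunoglobulin A, at 0.66 (0.49) to Igha, its heavy chain, at -0.33 (-0.20). Pigr was highest in SVX_VAS2 (997 CPM) and INT1 (648), and its logFC turned to -0.416 without SVX_VAS2 and rose to 1.26 without INT1, while the list median went to -0.31 and 0.04. Eosinophils, basophils and mast cells had 0.47 over 5 tested of 16 listed (0.24), from the interleukin 5 receptor chain Il5ra at 0.51 (0.44) to the lipoxygenase Alox15 at 0.02 (0.24), and the list median was 0.06 without SVX_VAS2. Of these 5 genes, 2 passed the filter only through the estrus libraries, Il5ra among them (18.3 to 20.9 CPM there). In the mated libraries Il5ra was 3.86 in INT1 and 0.157 to 2.01 elsewhere, and its logFC was 0.996 without INT1. MHC and antigen presentation had -0.15 over 21 members (-0.14), from H2-T23 at 0.13 (0.10) to B2m, the shared light chain of class I molecules, at -0.49 (-0.10). Interferon-stimulated genes had 0.17 over 35 members (0.12), of which 26 had a positive logFC, beside 8501 of all 17222 genes, from Oas3, a sensor of double-stranded RNA, at 1.05 (0.66) to the GTPase Iigp1 at -0.16 (-0.19; 0.118 without INT1). Oas3 stood at 23.7 to 55.5 CPM in VAS2, SVX_VAS2, INT1, INT2, VAS1 and VAS3 and at 2.41 to 6.11 in the other 10 libraries, and its logFC was 0.21 without SVX_VAS2. The list median was 0.08 without SVX_VAS2.

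Markers of the structural cells of the endometrium were all measured: 15 of 15 for luminal and glandular epithelium, 15 of 15 for stroma, 14 of 14 for smooth muscle, which may include underlying myometrium, and 16 of 16 for endothelium. Epithelium had a median of 0.19 (0.35 without VAS2 and VAS3), with the smallest logFC for the tight junction protein Cldn3 at -0.22 (0.01), and -0.04 without VAS1. Stroma had -0.34 with all 15 members negative, where 8501 of all 17222 genes were positive, from Mfap5 at -0.06 (-0.01) to vimentin, Vim, at -0.47 (-0.13). Without VAS2 and VAS3 the median was -0.07 and 3 of the 15 were positive, beside 8724 of all 17222 genes. Smooth muscle had -0.17 (-0.18), from Lmod1 at 0.12 (-0.19) to the actin Acta2 at -0.47 (-0.30), and 0.02 without INT1. Endothelium and lymphatic endothelium had -0.08 (-0.10), from Prox1, the lymphatic master regulator, at 0.24 (-0.03) to the cadherin Cdh5 at -0.30 (-0.15). Mesothelium and fat had 0.12 over 5 members (-0.14), from Msln at 0.34 (-0.18) to Wt1 at -0.21 (-0.11). Ciliated epithelium of the oviduct had 0.05 over 7 (-0.05), from Foxj1, which drives ciliogenesis, at 0.60 (0.81; -0.174 without SVX_VAS4) to Ccdc39 at -0.27 (-0.08). Red blood cell genes had -0.33 over 5 (-0.23), from the globins Hba-a1 at -0.27 (-0.04) to Hbb-bs at -0.53 (-0.25).

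Among process lists, those of ER chaperones, matrix and proliferation had medians below 0 that lay nearer to 0 when VAS2 and VAS3 were left out. ER chaperones had -0.19 over 19 members, from the stress factor Ddit3 at -0.01 (0.03) to Hsp90b1, an abundant chaperone of the ER lumen, at -0.41 (-0.06), and -0.03 without both libraries, when the intervals of all 19 stayed under a 1.5-fold difference. Extracellular matrix and proteases had -0.13 over 30 (-0.02), from matrilysin, Mmp7, at 1.16 (-0.01; -1.13 without SVX_VAS2) to Col3a1, the fibrillar collagen III chain, at -0.43 (-0.04). Proliferation genes had -0.17 over 30 (-0.06), from Cdkn1a, the p21 inhibitor, at 0.76 (0.36; 0.32 without SVX_VAS2) to Rrm2 at -0.34 (-0.19; -0.0889 without SVX1). Single libraries moved these medians both ways: proliferation was -0.35 without VAS1 and -0.07 without SVX1, and ER chaperones were -0.37 without VAS1 and -0.11 without VAS2. Glycolysis and hypoxia had -0.08 over 19 (0.01), from the prolyl hydroxylase Egln3 at 2.0 (1.45) to Pkm at -0.42 (-0.08). Egln3 was at 276 CPM in SVX_VAS2, 155 in INT1 and 107 in VAS2, and its logFC was 0.256 without SVX_VAS2. Cholesterol and fatty acid synthesis had -0.02 over 20 (0.06), with the smallest logFC for Fdft1, squalene synthase, at -0.24 (-0.02), and the list median was -0.22 without VAS1.

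Immediate early genes had a median of 0.04 over 21 members (0.08 without VAS2 and VAS3). Of the 21, 4 had an unadjusted p under 0.05 and a positive logFC, beside 1.9% of all genes tested. Without VAS2 and VAS3, 3 had such a p in either direction, beside 0.941% of all genes tested. Atf3, a stress-induced transcription factor, had the largest logFC, 0.78, from 14.6 CPM in VAS2, 13 in SVX_VAS2 and 9.78 in VAS3 and 2.27 to 6.62 in all others, and 0.42 without VAS2 and VAS3. Fosl1, an AP-1 subunit, had the smallest, -0.89, and -0.40 without them or -1.49 without VAS4. Nr4a3, an orphan nuclear receptor named after its values were seen, followed other libraries: 29.9, 20.5 and 28 CPM in SVX_VAS1, SVX_VAS3 and SVX_VAS4 against 2.39 to 15.1 in all others, for a logFC of 0.74 with all libraries and 0.92 without VAS2 and VAS3. Angiogenesis had -0.03 over 24 (-0.07), from the vasoconstrictor endothelin, Edn1, at 0.37 (0.13) to Hif1a at -0.26 (-0.08). Luminal fluid transport had 0.00 over 16 (-0.04), from Slc26a4 at 3.86 (1.46) to the water channel Aqp5 at -0.46 (-0.35).

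**Figure D5:**
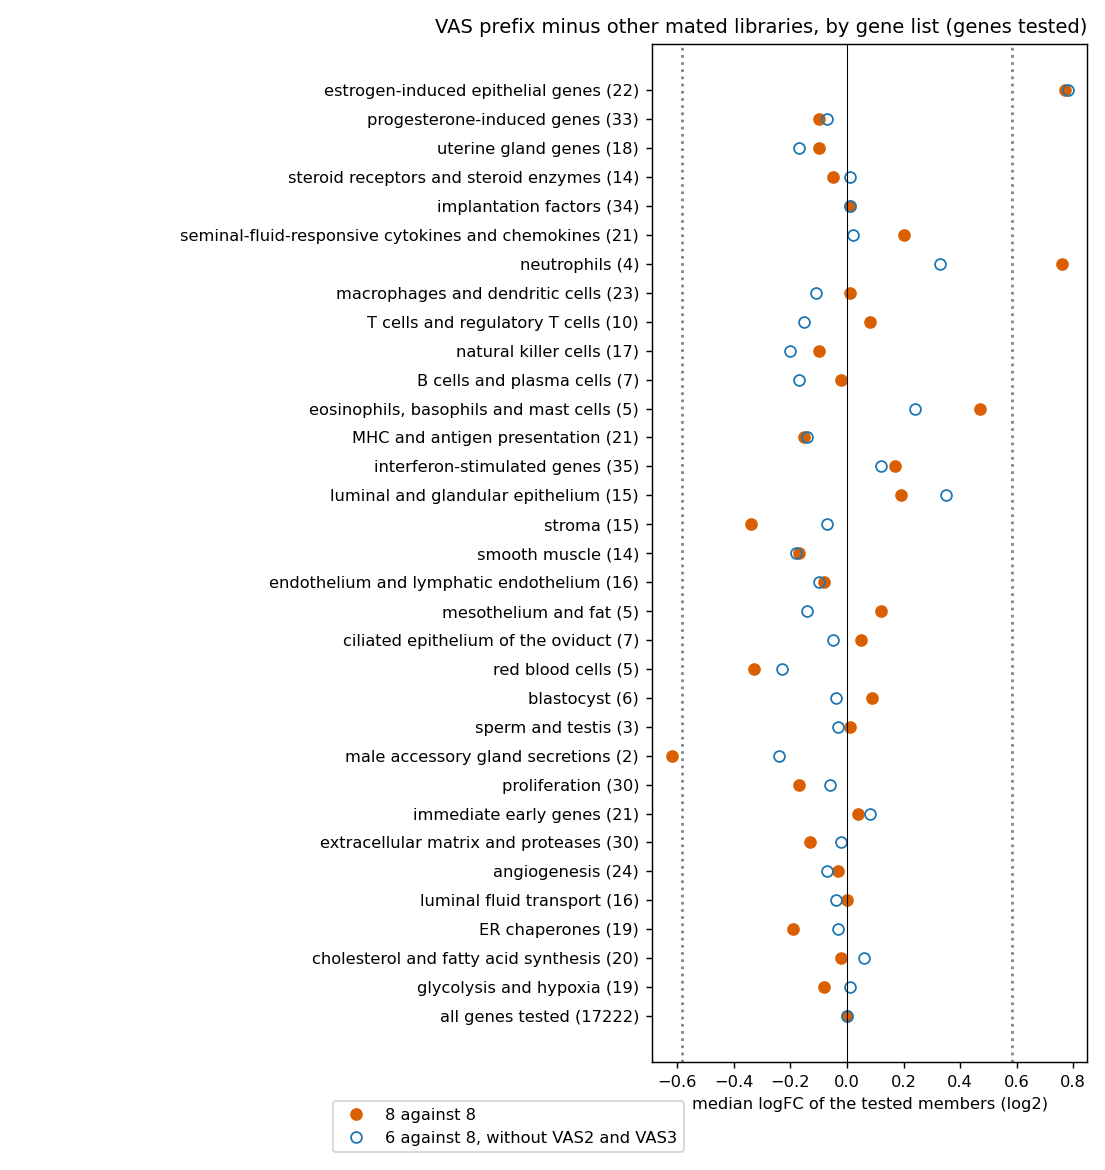
Median logFC of the tested members of each gene list (number tested in brackets) for 8 against 8 libraries (filled) and without VAS2 and VAS3 (open), with dotted lines at a 1.5-fold difference. The estrogen list lies at 0.77 and 0.78; neutrophils move from 0.76 to 0.33, and stroma from -0.34 to -0.07.

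Genes listed for embryos, sperm or male glands did not separate the prefixes. The levels of the blastocyst and sperm lists could not show embryos or sperm, since virgin females at estrus had counts on them too. Blastocyst genes summed to 167 to 190 CPM at estrus, 142 to 281 with the VAS prefix and 181 to 300 in the comparison libraries. Sperm and testis genes summed to 96.3 to 116, 102 to 137 and 102 to 125 CPM. Of 23 blastocyst genes, 6 were tested, and their logFC ran from 0.22 for Khdc1a and Gata6, which were -0.03 and -0.04 without VAS2 and VAS3, over Tead4 at 0.20, Eomes at -0.03 and Sox17 at -0.16 to -0.59 for Lgals2, which was -0.15 without them, with a median of 0.09 (-0.04 without VAS2 and VAS3). Tead4 was 0.26 and Sox17 -0.01 without both libraries. The pluripotency factor Pou5f1 had 1 count in the 8 VAS-prefixed libraries together and 2 in the 8 others, Nanog had 5 and 5, the trophectoderm factor Cdx2 had 0 and 1, and Zfp42 and Dppa4 had 0 in all 16. These factors were thus at or near 0 on both sides at this depth. Some other untested genes of the list had counts in all 16 libraries. Totals with and without the VAS prefix were 294 and 170 for Elf5 and 262 and 268 for Tfap2c. They were 172 and 150 for Dnmt3l and 111 and 105 for Sox2. Of 19 sperm and testis genes, 3 were tested: Zpbp at 0.19, Odf2 at 0.01 and Gapdhs at -0.54. Without VAS2 and VAS3, Zpbp turned slightly negative, Odf2 was 0.03 and Gapdhs -0.03. Their median was 0.01 (-0.03 without both libraries). The protamines of sperm chromatin were near the limit, with 34 and 37 counts for Prm1 and 14 and 18 for Prm2, and Akap4, Pgk2 and Smcp had 0 in all 16 libraries.

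Genes of the Y chromosome had 0 counts in the VAS-prefixed libraries and 4 in the others, 2 for Kdm5d and 2 for Uty. Among secretions of the male accessory glands, the seminal vesicle proteins Svs2, Svs3a, Svs3b, Svs4, Svs5 and Svs6 had 0 counts in all 16 libraries. The 2 tested genes of this list, Tgm4 and Spink1, had a median of -0.62 (-0.24 without VAS2 and VAS3, -0.96 without VAS4). Tgm4, the prostatic transglutaminase, overlaps an exon on the opposite strand and lay between 9.89 and 12 CPM in the comparison libraries, with a logFC of -0.39 that became 0.04 without VAS2 and VAS3. Spink1, a trypsin inhibitor that the uterine glands also make, was 13 to 85.4 CPM with the VAS prefix and 33.4 to 114 without it. Its logFC was -0.85 (95% interval -1.66 to -0.04, FDR 0.838), and -0.52 (-1.27 to 0.23) without VAS2 and VAS3.

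The pooled comparison holds 2 pairs that share no library: VAS against INT and SVX_VAS against SVX. Neither pair had a gene called in edgeR in either direction (0% of 17222), with 1831 genes at an unadjusted p under 0.05 in VAS against INT and 240 in SVX_VAS against SVX. These counts were 154 and 391 without VAS2 and VAS3. DESeq2 also called 0 in both. The 95% interval of the logFC stayed under a 1.5-fold difference for fewer genes than in the pooled comparison. These were 8587 (49.9%) in VAS against INT and 10312 (59.9%) in SVX_VAS against SVX, and 63.7% and 72.7% without VAS2 and VAS3. The count for VAS against INT depended on the libraries and the tool: edgeR called 578 genes without VAS1 and 135 without VAS4, and limma-voom called 1663, or 4734 with weights, against 0 without VAS2 and VAS3 in either fit. Across genes, the logFC of the pairs had a Pearson r of -0.0855 and a Spearman rho of -0.125 and the same sign in 44.7% of genes, and -0.473, -0.142 and 45.2% without VAS2 and VAS3, given as a description since genes are not independent. The estrogen list had a median logFC of 2.87 in SVX_VAS against SVX, where SVX_VAS2 and SVX_VAS4 were high (6.51 and 5.78 log2 CPM) and SVX_VAS1 and SVX_VAS3 low (1.97 and 1.72), and of -0.24 in VAS against INT (-0.78 without VAS2 and VAS3). The difference between these medians was not tested. Ltf had a logFC of 2.89 (95% interval -0.48 to 6.26) and -1.35 (-4.54 to 1.84), with an interaction of 4.24 (-0.38 to 8.86, FDR 0.698). Slc15a1 had 0.74 and 0.98.

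Whether the difference with the VAS prefix itself changed with the SVX prefix was tested as an interaction. Read by title, this contrast is the vasectomy factor with its sign reversed and on a larger scale. It takes whole differences where a factor takes their mean (median standard error 0.253 against 0.126 in the pooled comparison). An interaction logFC is therefore not the size of a vasectomy difference. By edgeR, 0 genes (0%) passed an FDR of 0.05 (972 at an unadjusted p under 0.05, smallest FDR 0.697; 360 and 1 without VAS2 and VAS3). DESeq2 called 0, and limma-voom 647, or 7452 with weights, against 0 without VAS2 and VAS3 in either fit. The 6 genes of smallest p all had a positive logFC in VAS against INT and a negative one in SVX_VAS against SVX. Ccdc15, a centriolar satellite protein, had 0.52 and -0.34 (interaction logFC -0.86 ± 0.19 SE, FDR 0.698). Syde2 had 0.39 and -0.26, Sclt1, a distal appendage protein of centrioles, 0.22 and -0.25, and Rttn, another centriole protein, 0.28 and -0.16. Nemp2 had 0.37 and -0.17 and Usp49 0.32 and -0.09. Without VAS2 and VAS3 the interaction logFC was -0.65 for Syde2, as with all libraries, and went from -0.86 to -0.80 for Ccdc15, from -0.41 to -0.38 for Usp49, from -0.44 to -0.32 for Rttn, from -0.54 to -0.36 for Nemp2 and from -0.47 to -0.31 for Sclt1, all at an FDR of 1. In VAS against INT, Ccdc15 then had 0.47, Syde2 0.39, Usp49 0.29, Nemp2 0.19, Rttn 0.16 and Sclt1 0.07. For comparison, the prefix SVX over the same 16 libraries (SVX and SVX_VAS against INT and VAS), which is the interaction when read by title, also had 0 genes called by edgeR in either direction (0%), with 1970 at an unadjusted p under 0.05 and a smallest FDR of 0.0695 (1697 and 0.146 without VAS2 and VAS3). DESeq2 called 20 genes there, 5 higher and 15 lower, and 1 without VAS2 and VAS3. limma-voom called 1052, and 0 without them, and edgeR called 112 when VAS4 was left out.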

How the data were processed

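RNA-seq of mouse endometrium was analysed from raw counts per gene for 49089 genes in 19 libraries. The authors prepared stranded total RNA libraries, sequenced both ends, trimmed adapters with AdapterRemoval, aligned with STAR to GRCm38, counted reads with featureCounts and deposited the counts without normalization; the versions of STAR and featureCounts and the strand setting were not given in the sources used here. Groups were taken from the column prefix. A gene was tested when 3 or more of the 19 libraries, estrus included, reached 3 CPM (17222 genes, 35.1%), and symbols were found for 48349 genes. The quasi-likelihood model of edgeR 4.0.16 (R 4.3.3) was fitted to the counts of all 5 groups with TMM scaling and no replicate block. The pooled contrast was the mean of VAS and SVX_VAS minus the mean of INT and SVX. A call needed a Benjamini-Hochberg FDR no higher than 0.05 plus a 1.5-fold difference (interaction: FDR alone). Levels are TMM-scaled CPM; their log2 values carry a prior count of 2. Intervals are 95% intervals of the fit. Single values and principal component scores were compared with exact permutation tests (two-sided). The code was tested on simulated data.

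Named genes were the 12 of smallest p in each direction (no gene being called), the extremes of each list, the tested genes of the blastocyst, sperm, Y chromosome and accessory gland lists, and the 6 of smallest p in the interaction; others are marked, and 2 list extremes are not reported here. The groups compared, the gene lists and the tests were chosen with earlier results of these data known. Alternatives were other scaling, filters, cutoffs, contrasts, DESeq2 1.42.0, limma-voom (limma 3.58.1), a replicate block and left-out libraries. No 2 replicates were the same library. Figures were drawn with Python 3.11.15.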

Additional observations from a re-analysis of the deposited data

Results flagged for a closer look

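In the 8 VAS-prefixed and the 8 other mated libraries, a library was singled out when its gap to the nearest other library was large against the group's range (Dixon's test at the 95% level). Of 274 groups of 8 values searched, 13 were singled out, where chance alone gives about 1 in 20, or 13.7, so chance alone would give as many. INT1 was far above the other libraries without the VAS prefix for Sprr2d (4.5 log2 CPM, next -0.54), Clca3b (2.81, next -0.68), Slc26a4 (4.31, next -0.03) and the median of smooth muscle markers (7.12, next 6.42). INT2 was lowest for Atf3 (1.26, next 2.1) and the median of blastocyst genes (2.08, next 2.37).

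Among the VAS-prefixed libraries, VAS1 was lowest for Sult1a1 (3.65, next 4.6), Ccl8 (1.41, next 2.31) and the median of angiogenesis genes (5.05, next 5.67). VAS3 was lowest for Ddit3 (3.58, next 3.92). VAS4 was highest for Hba-a1 and for the median of red blood cell genes (both 4.01, next 3.22), and SVX_VAS2 was highest for H2-T23 (6.59, next 5.78). In the pooled comparison, edgeR called no gene with any single library left out.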

How the results depend on the processing

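The pooled comparison kept 0 calls in edgeR under every other scaling, filter, cutoff, contrast and left-out library tried, and in DESeq2 with all libraries and without VAS2 and VAS3. The tool and VAS2 and VAS3 mattered. limma-voom and limma-voom with quality weights called 746 and 2435 genes in the pooled comparison, 1663 and 4734 in VAS against INT, 647 and 7452 in the interaction, and 1052 and 3182 for the prefix SVX. DESeq2 called 20 for the prefix SVX, and 1 without VAS2 and VAS3, and edgeR called 1 there among genes with no exon overlap on the opposite strand. These last 2 settings were chosen after the data were seen, as were the filter reapplied without VAS2 and VAS3 or on the 16 mated libraries alone (0 calls in each comparison), limma-voom without VAS2 and VAS3 (0 calls in each comparison, with or without weights), and genes under 0.3 counts per base. Leaving out 1 library gave 0 calls in the pooled comparison, SVX_VAS against SVX and the interaction, 0 to 578 in VAS against INT (578 without VAS1, 135 without VAS4), 0 to 112 for the prefix SVX (112 without VAS4, 1 without INT4), and p from 0.0424 to 0.322 for the first component. The unadjusted count of 518 in the pooled comparison rose to 2705 without VAS1 and 2174 without VAS4 and fell to 194 without VAS2 and 265 without VAS3. The cause was not tested. With no filter, 36300 genes were tested and edgeR called 0 (1187 at an unadjusted p under 0.05); depth limits what low genes can show.

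Of 3162 logFC values of 102 named genes under 31 settings, 67 had the opposite sign of a value that was not called, and 31 passed the threshold, all in limma-voom. Without VAS2 and VAS3 the opposite signs were Khdc1a -0.0313, Lmod1 -0.189, Prox1 -0.0332, Gm42692 -0.202, Cldn3 0.00942, Gm21182 0.424, Mmp7 -0.0104, Cd3e -0.204, Tgm4 0.0373, Ddit3 0.031, Zpbp -0.0357, Msln -0.178, Gata6 -0.0403 and Foxp3 0.0478. With quality weights they were Sclt1 0.0317, Gm15708 -0.159, Sult1a1 0.0238, Ltf -0.0757, Eomes 0.122, Alox15 -0.187, H2-T23 -0.0267 and Cyp26a1 0.0144. Upper quartile scaling gave Sclt1 0.0123 and Ddit3 0.00907, and 2 pooled groups of 8 gave Gm21182 0.0188. Odf2 was -0.00201 with filterByExpr and -0.00489 with no filter. Across left-out libraries the values ran from -0.0935 to 0.112 for Alox15, -0.314 to 0.152 for Ccl8, -0.0398 to 0.0426 for Ddit3, -0.11 to 0.0925 for Eomes, -0.174 to 1.04 for Foxj1, -0.48 to 0.132 for Gm21182, -0.00317 to 0.5 for Gm42692, -0.0567 to 0.238 for H2-T23, -0.275 to 0.118 for Iigp1, -0.132 to 0.372 for Lmod1, -0.75 to 1.72 for Ltf, -1.13 to 2.11 for Mmp7, -0.0312 to 0.0404 for Odf2, -0.416 to 1.26 for Pigr, -0.0409 to 0.0129 for Sclt1 and -0.203 to 0.0293 for Sult1a1.

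The replicate block gave 0 calls and 570 genes at an unadjusted p under 0.05 in the pooled comparison, and turned Odf2 to -4.29e-05. Correlations of the libraries' deviations did not settle whether the numbers pair the samples. Between INT and VAS, libraries with the same number correlated at 0.181, 0.0406, 0.0513 and 0.345, and those with different numbers at -0.336 to 0.326. Between SVX and SVX_VAS, the same number gave -0.458, -0.224, 0.36 and -0.267, and different numbers gave -0.511 to 0.49.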
